A study of Mus musculus with 5 samples.

Results

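Imprinted genes are transcribed mainly from the allele of 1 parent, and 37 of them in the mouse, Dlk1 among them, are described here out of 53843 genes annotated on chromosomes 1 to 19 and X (GENCODE M21, assembly mm10). The genes came from a fixed list, and a called region was counted for a gene when it overlapped the gene's window, the gene body with 10 kb on each side, by at least 1 bp. The windows held 71 of 36468 regions and 74 of 38546 regions in the pre-adipocyte replicates, and 113 of 59375 and 112 of 61196 in the mature replicates. Paired values are given for replicate 1 and then replicate 2 throughout. Bodies of neighbouring genes lie close, so 1 to 7 regions of a sample fell in the windows of more than 1 gene. The 37 genes form 16 clusters.

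The regions come from ChIP-Seq of the histone variant macroH2A1.2 in 3T3-L1 cells, a mouse embryonic fibroblast line that can be induced to become adipocytes. All cells carried a lentivirus for stable expression of macroH2A1.2, which the study fused to GFP, and the chromatin was precipitated with an anti-GFP antibody (ab290), so the transgene product rather than the endogenous histone was followed. Pre-adipocytes (2 replicates) had no inducers, and mature adipocytes (2 replicates) had received insulin at 10 µg/ml, dexamethasone at 0.25 µM and IBMX at 500 µM for 60 h, followed by medium with insulin and without the other agents. The control reads came from a library whose title and antibody field give no antibody, although its description field names GFP cells with the antibody, and every control count, fold and ChIP to control ratio below depends on it. Condition names rest on the sample titles, because the description fields of both mature samples name the state before differentiation. The cell line is the one given by the labels and by the study's results, whereas its methods on immunoprecipitation speak of adipose tissue from mice. The tables hold no expression values, so the cell type could not be checked against adipocyte genes, and reads of the maternal and paternal alleles cannot be told apart. The study calls the replicates biological without saying whether they were separate cultures, and p-values measure only the spread between these samples.

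Replicate 2 of pre-adipocytes was the shallowest sample. Its library size relative to the control library was 0.549, against 1.2 in replicate 1 of pre-adipocytes and 1.23 and 1.21 in the mature replicates. The median region held 57 ChIP reads there and 121 to 186 in the other samples, so a gene without a region in this replicate may have been below detection. Regions were called up to a false discovery rate (FDR) of 0.001, and weaker enrichment cannot be seen.

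Imprinted clusters are controlled by short stretches of DNA, often at CpG-rich promoters, that are methylated on 1 parental allele only. In several clusters a long non-coding RNA starts at such a stretch on the unmethylated allele, as Airn does at Igf2r, Kcnq1ot1 near Cdkn1c and Nespas at Gnas. Some of its neighbours, not always all, are silent on the same chromosome. MacroH2A1, a histone with a large macro domain, is best known from the inactive X chromosome and has also been studied at silent alleles of imprinted genes. Dlk1, also called preadipocyte factor 1 (Pref-1), is a membrane protein with EGF repeats that restrains adipocyte differentiation, and several other genes of the list act on growth or insulin signalling.

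In 1 or more samples a region lay in the window of 27 of the 37 genes, against a background of 45.2% over all genes. A region in both replicates of pre-adipocytes was found for 13 genes (background 21.0%) and a region in both replicates of mature adipocytes for 19 (background 29.8%). These counts are not directly comparable with the background, since the median window was 46540 bp for the imprinted genes, 23525 bp for all genes and 37414 bp for protein-coding genes. Regions were present in all 4 samples at 13 genes (background 18.5%), namely Peg10, Ppp1r9a, Asb4, Mest, Copg2, Kcnq1ot1, Plagl1, Grb10, Ddc, Meg3, Rtl1, Rian and Airn. Zdbf2, Sgce and Igf2r had regions in 3 samples, and Impact in replicate 1 of each condition. The number of genes with a region was 20 and 14 in the pre-adipocyte replicates and 23 and 19 in the mature replicates. Each of the 7 genes with a region in a single sample had it in a replicate 1, in pre-adipocytes for Nnat, Ube3a, Dlk1 and Mirg and in mature adipocytes for Ndn, Igf2 and Dio3.

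**Figure D1:**
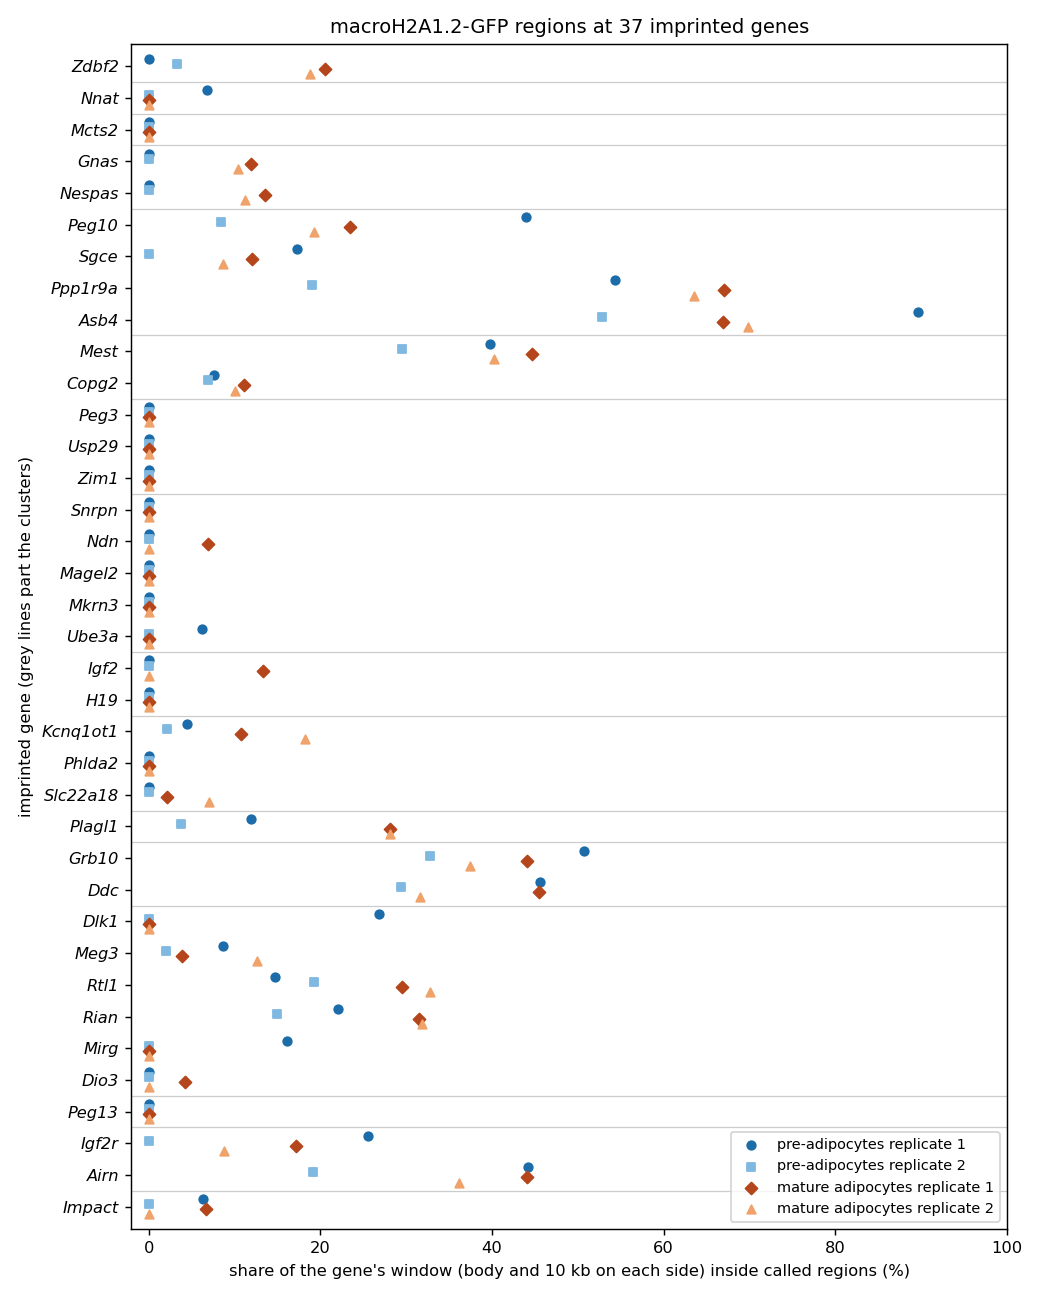
Share of each gene's window (body and 10 kb on each side) inside called regions, in percent on the x axis, for the 37 imprinted genes on the y axis, with 1 marker per sample and grey lines between clusters. Asb4 has the highest values, from 52.9% to 89.6%, and 10 genes lie at 0 in every sample.

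No gene had regions in both pre-adipocyte replicates and in neither mature replicate (background 0.728%). The opposite pattern, regions in both mature replicates and in neither pre-adipocyte replicate, was seen at 3 genes (background 4.25%), Gnas, Nespas and Slc22a18. Gnas encodes the stimulatory G protein alpha subunit, and Nespas is the antisense RNA that starts inside the Gnas locus. Both windows shared the same regions, so they are 1 observation. In replicate 1 of mature adipocytes the regions lay at chromosome 2 from 174276601 to 174278600 with 77 ChIP and 34 control reads, and from 174302801 to 174310600 with 280 ChIP and 141 control reads. In replicate 2 they lay from 174296401 to 174298000 with 66 ChIP and 36 control reads, and from 174303201 to 174310200 with 275 ChIP and 131 control reads. The second region, inside the Gnas body, was thus found at nearly the same place in both. Pre-adipocytes had no region within 111319 bp of Gnas in replicate 1 and within 106119 bp in replicate 2. Slc22a18, an organic cation transporter gene of the Kcnq1ot1 cluster, had a region upstream of its start at chromosome 7 from 143469801 in both mature replicates. It ended at 143470800 with 48 ChIP and 12 control reads in replicate 1, and at 143473000 with 94 ChIP and 44 control reads in replicate 2. With the gene body alone in place of the window the number was 1, and without replicate 1 of pre-adipocytes, without replicate 2 of mature adipocytes or with an FDR up to 1e-05 it was 5, 6 and 5. Without replicate 2 of pre-adipocytes, 4 genes had a region in pre-adipocytes and in neither mature replicate.

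Dlk1 (ENSMUSG00000040856.17, chromosome 12 from 109452823 to 109463336, forward strand) had no region over its body in any sample. Its window held 1 region, in replicate 1 of pre-adipocytes, at chromosome 12 from 109443601 to 109451800, which held 233 ChIP and 139 control reads, a library-scaled fold enrichment of 1.39. It ended 1022 bp upstream of the gene and covered 26.9% of the window. In replicate 2 of pre-adipocytes the closest region to the gene was at a distance of 12064 bp, and the distances were 51264 and 79622 bp in the mature replicates. The region upstream of Dlk1 was therefore not shared by the replicates of pre-adipocytes, and no difference between the conditions can be drawn from it. The 250 bases before the Dlk1 start, taken from RefSeq (GRCm38.p6, chr12:109452573-109452822, forward strand), are shown because this promoter lay 772 bp from the region of replicate 1 of pre-adipocytes and outside regions in every sample, with CG dinucleotides in capitals:
Dlk1 promoter: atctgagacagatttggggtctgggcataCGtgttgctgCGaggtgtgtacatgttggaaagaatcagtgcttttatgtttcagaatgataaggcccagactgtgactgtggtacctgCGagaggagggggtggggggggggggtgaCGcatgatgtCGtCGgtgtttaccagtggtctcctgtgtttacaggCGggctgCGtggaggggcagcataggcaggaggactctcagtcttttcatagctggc

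The rest of the Dlk1-Dio3 cluster held more regions than Dlk1 itself. This domain expresses protein-coding genes such as Dlk1, Rtl1 and Dio3 from the paternal chromosome and the non-coding RNAs Meg3, Rian and Mirg from the maternal one. Rtl1, a gene derived from a retrotransposon, was covered over 41.3% and 38.9% of its body in the pre-adipocyte replicates and 46.1% and 44.3% in the mature replicates. Both mature values were above both pre-adipocyte values. Rian, a host transcript of small nucleolar RNAs, was covered over 21.1% and 9.69% of its body in pre-adipocytes and 31.8% and 28.4% in mature adipocytes, again without overlap between the groups. Over all genes, the covered share of the body was above both pre-adipocyte values in both mature replicates in 5.98%, and below in 1.26%. At Meg3, a long non-coding RNA next to the differentially methylated region of the domain, the covered share of the body came to 14.3% and 0% in pre-adipocytes, and to 0% and 12.1% in mature adipocytes, so the replicates differed more than the conditions. Mirg, the host of many miRNAs, and Dio3, which encodes a deiodinase that inactivates thyroid hormone, had no region over their bodies. The interval between Dlk1 and Meg3 was covered over 28.8% in replicate 1 of pre-adipocytes and over 3.86%, 6.95% and 0% in replicate 2 of pre-adipocytes and replicates 1 and 2 of mature adipocytes. The interval between Rian and Mirg was covered in every sample, over 8.23% to 25.9%.

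**Figure D2:**
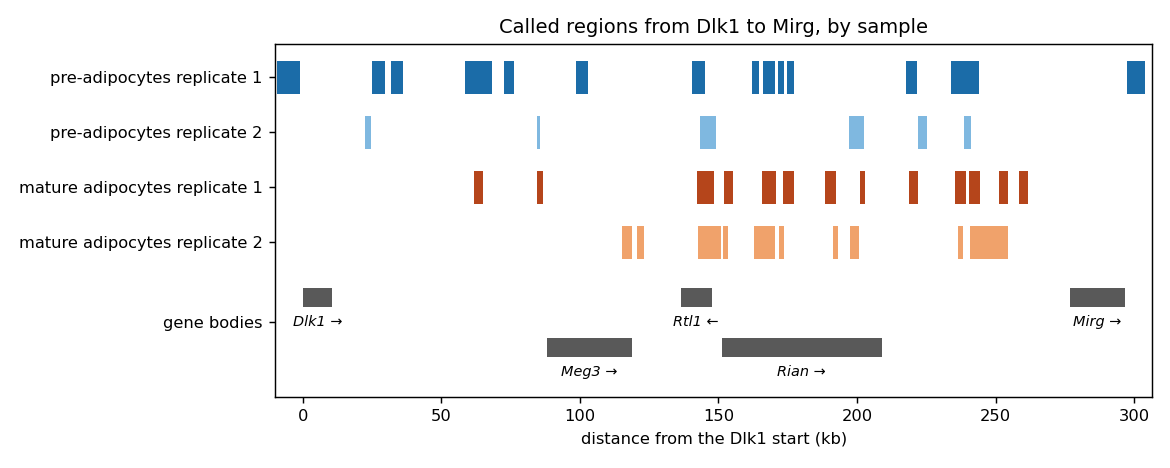
Called regions (bars, 1 row per sample) along the Dlk1-Dio3 cluster from 10 kb before Dlk1 to 10 kb after Mirg, with distance from the Dlk1 start in kb on the x axis and gene bodies in grey, arrows giving the strand; Dio3 lies outside the plot. Regions recur in all 4 samples at Rtl1 and Rian, and the only region beside Dlk1 is in replicate 1 of pre-adipocytes.

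RefSeq placed 83 mature miRNAs of 45 miRNA genes in the windows of this cluster, of which 9 lay in a region of at least 1 sample (background 9.09% of 1738 miRNAs). None lay in regions of both replicates of a condition (background 2.93%). The numbers were 7 and 0 in the pre-adipocyte replicates and 4 and 2 in the mature replicates. The 4 that lay in regions of 2 samples, replicate 1 of each condition, belong to Mir136 and Mir3071, which are read from opposite strands of the same DNA inside Rtl1 (chr12:109595329-109595387, GRCm38.p6). They are shown because they are the only miRNAs found in regions of more than 1 sample, with the seed (bases 2 to 8) in capitals. The seeds all differ:
mmu-miR-136-5p: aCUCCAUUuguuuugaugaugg
mmu-miR-136-3p: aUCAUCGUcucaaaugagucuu
mmu-miR-3071-5p: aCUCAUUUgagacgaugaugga
mmu-miR-3071-3p: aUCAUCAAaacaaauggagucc

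The 3 genes with the largest covered share of their window, averaged over the samples, were Asb4 (69.8%), Ppp1r9a (51.0%) and Grb10 (41.2%). Asb4 and Ppp1r9a lie in the Peg10-Sgce cluster of chromosome 6, and Grb10 on chromosome 11. Asb4 (ENSMUSG00000042607.15, chromosome 6 from 5383386 to 5433022) encodes a SOCS box protein with ankyrin repeats that takes part in ubiquitin ligase complexes. Its window was covered over 89.6% and 52.9% in the pre-adipocyte replicates and 66.9% and 69.8% in the mature replicates. The pre-adipocyte values lay on both sides of the mature values. The regions held 2301 and 803 ChIP reads and 1400 and 820 control reads in pre-adipocytes, and 2189 and 2174 ChIP reads with 1057 and 1076 control reads in mature adipocytes.

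Asb4 was also the only gene with a RefSeq promoter inside a region in all 4 samples (1 of 47 promoters, background 1.68%), a count near the background. Of 47 RefSeq promoters (the 250 bases before a start) of 30 of the imprinted genes, 9 (19.1%) touched a region of 1 or more samples, against 17.7% of 32619 promoters of all genes. Impact, Rtl1, H19, Sgce, Nespas, Peg13 and Peg10 have no entry in that table. Of the GENCODE starts of the 37 genes, 26 of 113 (23.0%) lay in a region of at least 1 sample, against 13.1% of all starts, and 1 of 113 (0.885%) in all 4 samples, against 1.10%. By sample, the share was 11.5% and 8.85% in pre-adipocytes, against 7.28% and 3.11% of all starts. In each mature replicate it was 7.08%, near the 7.02% and 6.73% of all starts. The 7 covered starts of Sgce and the 2 covered starts of Peg10 all lay in a single region of replicate 1 of pre-adipocytes, at chromosome 6 from 4737401 to 4747800. The promoter of the second Asb4 start is printed as the covered case, and the Airn and first Grb10 promoters as uncovered ones within widely covered genes (all GRCm38.p6, CG in capitals):
Asb4 second promoter (chr6:5390160-5390409, forward strand): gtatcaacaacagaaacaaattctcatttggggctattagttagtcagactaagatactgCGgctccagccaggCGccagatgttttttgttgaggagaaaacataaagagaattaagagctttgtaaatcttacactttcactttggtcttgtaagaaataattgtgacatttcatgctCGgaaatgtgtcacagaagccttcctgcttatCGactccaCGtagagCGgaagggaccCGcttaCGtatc
Airn promoter (chr17:12741061-12741310, forward strand): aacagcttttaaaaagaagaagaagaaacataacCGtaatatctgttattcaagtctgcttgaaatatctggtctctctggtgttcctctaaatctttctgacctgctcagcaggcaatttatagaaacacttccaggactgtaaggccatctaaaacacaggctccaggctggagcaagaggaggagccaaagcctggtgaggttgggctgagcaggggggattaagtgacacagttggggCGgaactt
Grb10 first promoter (chr11:12037421-12037670, reverse strand): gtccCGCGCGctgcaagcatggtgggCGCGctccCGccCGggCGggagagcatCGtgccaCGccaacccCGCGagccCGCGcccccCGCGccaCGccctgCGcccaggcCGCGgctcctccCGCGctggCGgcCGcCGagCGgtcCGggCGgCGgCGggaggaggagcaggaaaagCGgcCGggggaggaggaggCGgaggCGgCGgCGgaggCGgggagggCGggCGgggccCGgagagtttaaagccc

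CG reads the same on both strands, and counts of it ran from 2 in the Airn promoter through 8 in those of Dlk1 and Asb4 to 40 in that of Grb10. At least 1 CG was present in 93.6% of the 47 promoters and in 92.2% of those of all genes. The median count was 8 in the 9 promoters that overlapped a region and 10 in the 38 that did not, and over all genes it was 3 and 7. These counts describe the letters and no methylation was measured.

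Ppp1r9a, which encodes neurabin, an actin-binding partner of protein phosphatase 1, has the longest body in its cluster. Its window was covered over 54.4% and 19.1% in pre-adipocytes and 67.1% and 63.6% in mature adipocytes, with 16 and 15 regions in pre-adipocytes and 27 and 32 in mature adipocytes. Both mature values exceeded both pre-adipocyte values, and the lowest belonged to the shallowest sample. Peg10, a retrotransposon-derived gene needed in the placenta, was covered over 44.0% and 8.43% of its window in pre-adipocytes and 23.5% and 19.3% in mature adipocytes. Its neighbour Sgce, encoding epsilon-sarcoglycan, had 17.3% and 0% in pre-adipocytes and 12.1% and 8.68% in mature adipocytes. For both genes the 2 pre-adipocyte values enclosed the mature ones.

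Grb10 encodes an adaptor protein that dampens insulin and growth factor receptor signalling, and Ddc, beside it, encodes DOPA decarboxylase. The window of Grb10 was covered over 50.7% and 32.8% in the pre-adipocyte replicates and 44.1% and 37.4% in the mature replicates. That of Ddc was covered over 45.6% and 29.4% in pre-adipocytes and 45.5% and 31.7% in mature adipocytes. The mature values of both genes lay between the pre-adipocyte values. The highest fold enrichment of a region in any imprinted window, 6.51, was at Grb10 in replicate 2 of pre-adipocytes. This is the shallowest sample, and its median fold over regions in the windows, 1.96, was also the highest. At Grb10 the highest fold was 3.21 in replicate 1 of pre-adipocytes, and 2.49 and 2.61 in the mature replicates. The regions ran through the Grb10 body and left out its first promoter, which was 2130, 5930, 6330 and 6420 bp from the nearest region in the pre-adipocyte and then the mature replicates.

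At Igf2r-Airn, the covered DNA lay on both sides of the stretch where the genes overlap. Igf2r encodes the receptor that takes up IGF2 for degradation, and Airn is a long non-coding RNA transcribed against it from the paternal allele. In the 28354 bp shared by both bodies, from the Airn start to the Igf2r start (chromosome 17 from 12741311 to 12769664), no base lay in a region in any sample. The part of the Airn body beyond Igf2r was covered over 59.2% and 26% in pre-adipocytes and 54.5% and 48.3% in mature adipocytes. The part of the Igf2r body outside Airn was covered over 27.2% and 0% in pre-adipocytes and 19% and 6.79% in mature adipocytes. The Airn promoter was 7860 and 42690 bp from the nearest region in pre-adipocytes and 5660 and 19060 bp in mature adipocytes, and the Igf2r promoter 1844, 14044, 844 and 10644 bp in the same order. Whether this gap is particular to the locus was not tested.

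**Figure D3:**
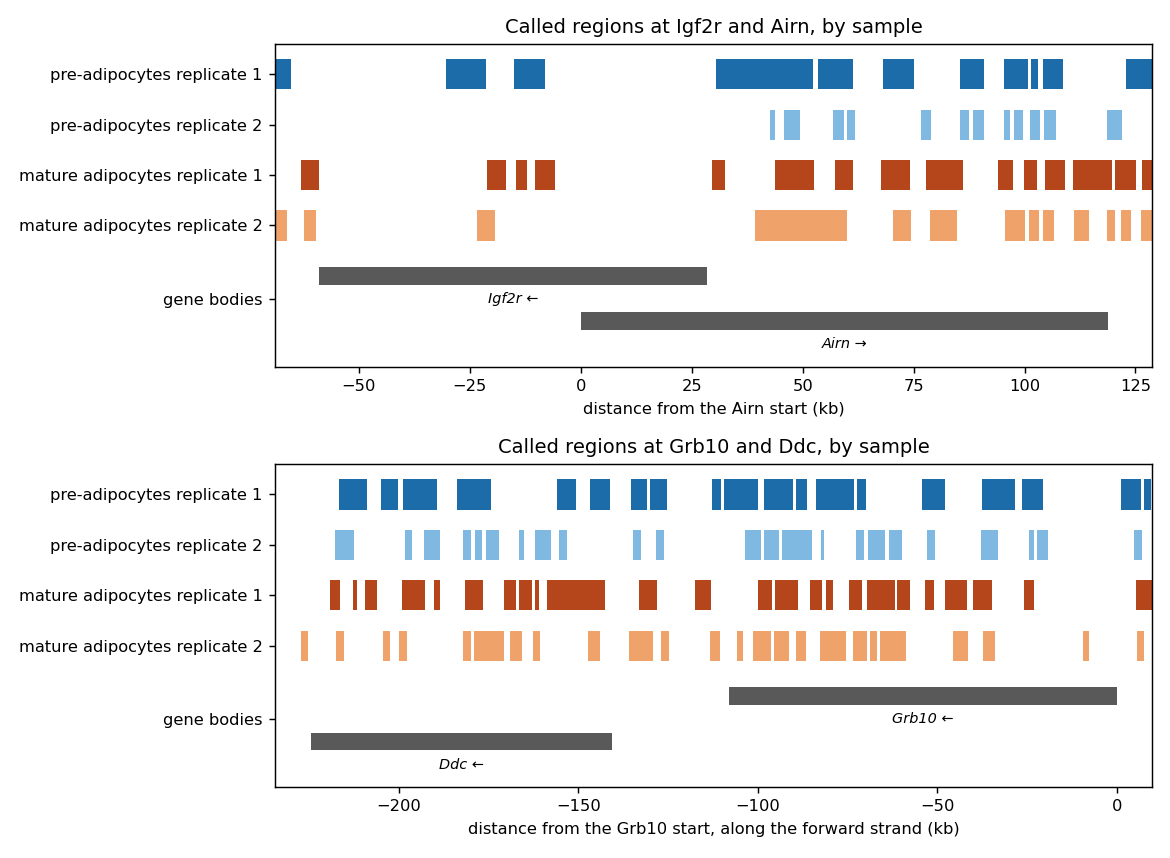
Called regions (bars, 1 row per sample) at Igf2r and Airn (top, x axis in kb from the Airn start) and at Grb10 and Ddc (bottom, x axis in kb from the Grb10 start, along the forward strand), with gene bodies in grey and arrows for the strand. The 28354 bp between the Airn and Igf2r starts hold no region in any sample, whereas regions run through both Grb10 and Ddc.

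At Mest, a paternally expressed gene whose expression rises in expanding fat, regions lay at the upstream end of the annotated body. The body outside Copg2 was covered over 36.0% and 25.2% in pre-adipocytes and 45.2% and 38.5% in mature adipocytes, so the groups did not overlap. The promoters of its 2 downstream starts, which carry 14 CG each, were at least 3399 bp from a region in every sample. Copg2, a coatomer subunit gene transcribed towards Mest, was covered over 2.02% and 3.24% of the body outside Mest in pre-adipocytes and 6.88% and 6.07% in mature adipocytes. Kcnq1ot1, the non-coding RNA of the Cdkn1c cluster, had 1 region in each pre-adipocyte replicate and 4 in each mature replicate. Its body was covered over 5.37% and 2.58% in pre-adipocytes and 12.6% and 22.1% in mature adipocytes. Plagl1, a zinc finger gene that regulates other imprinted genes, was covered over 11.9% and 3.73% of its window in pre-adipocytes and 28.2% in both mature replicates. Zdbf2, a paternally expressed gene, had 0% and 3.26% in pre-adipocytes and 20.6% and 18.8% in mature adipocytes. Its RefSeq promoter at chromosome 1 from 63200108, outside the window, went the other way and lay in a region in replicate 1 of pre-adipocytes only. For the covered shares of these genes both mature values were above both pre-adipocyte values. With 2 samples against 2 an exact permutation test cannot give a two-sided p below 0.33 for any of them. Counted over the whole list by the covered share of the window, a count made once the values had been seen, this held for 11 of the 37 genes (background 12.5%), and the reverse for 0 (background 2.84%). Imprinted windows were longer than those of all genes, and mature samples held more regions over the whole genome, so the share cannot be read as particular to the list. The count also moved with single replicates. Without replicate 2 of pre-adipocytes both mature values lay above the remaining one at 11 genes and below it at 11, and without replicate 1 above it at 19 and below it at 0. With regions of a fold enrichment of at least 2 the count was 3.

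Windows without a region in any sample belonged to 10 genes, Mcts2, Peg3, Usp29, Zim1, Snrpn, Magel2, Mkrn3, H19, Phlda2 and Peg13. Their median window was 24678 bp, against 91191 bp for the 13 genes with a region in all 4 samples. All but Mcts2 and Peg13 lie on chromosome 7, in clusters whose flanks were also sparsely covered. Averaged over the samples, the flanks had 0.0425% for Peg3, 0.325% for Snrpn-Ube3a, 2.00% for Igf2-H19 and 1.75% for Kcnq1ot1, against 12.3% over all clusters. Peg3, a zinc finger gene, and its neighbours Usp29 and Zim1 on chromosome 7 were the farthest from regions, with none closer than 869668 bp to Zim1, the nearest of them. Their flanks were also empty apart from 1 region in replicate 1 of pre-adipocytes, which covered 0.17%. Snrpn, a splicing protein gene of the domain altered in Prader-Willi syndrome, was at least 732494 bp from a region in every sample. H19, a maternally expressed non-coding RNA, was at least 64057 bp away, and Igf2, its paternally expressed partner, had regions in its window in replicate 1 of mature adipocytes only, with 171 ChIP and 58 control reads in total.

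The question posed by these domains is whether the genes were more covered than the DNA around them. Each cluster was therefore set against 1 Mb on each side, which leaves out DNA between the windows of a cluster. Only windows of the 37 genes were taken out of these flanks, so other genes of imprinted domains can lie in them. Pooled over the clusters, 20.4% and 9.28% of the windows were covered in the pre-adipocyte replicates and 22.1% and 20.2% in the mature replicates. The flanks were covered over 14.2%, 6.85%, 14.1% and 14.0% in the same order. The windows were higher in 4 of 4 samples, by 5.67 ± 2.33 percentage points (SD, n = 4), with p = 0.13 in an exact two-sided sign-flip permutation test, the smallest p that 4 samples allow. With each cluster weighted equally, a choice made once the values had been seen, the difference was 0.0804 points (exact sign-flip permutation test, p = 0.875), and with regions of a fold enrichment of at least 2 it turned to -0.458 points (exact sign-flip permutation test, p = 0.375).

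The clusters did not share a direction. Windows were more covered than flanks in all 4 samples in 4 clusters, less covered in all 4 samples in 5, and mixed in 7. With an FDR up to 1e-05, or with a fold enrichment of at least 2, 1 cluster in place of 4 was more covered in all samples. Grb10 stood highest above its flanks, with 48.4%, 31.3%, 44.7% and 34.9% of the windows and 6.12%, 2.78%, 4.72% and 4.53% of the flanks covered in the pre-adipocyte and then the mature replicates. The lowest window value was above the highest flank value by a wide margin. Igf2r-Airn windows were covered over 40.0%, 13.5%, 36.7% and 30.1% and its flanks over 16.3%, 6.59%, 13.4% and 14.9%. In the Dlk1-Dio3 cluster the windows had 15.8%, 5.41%, 11.8% and 13.4% and the flanks 2.18%, 1.61%, 2.92% and 2.79%. The 529607 bp between the Mirg and Dio3 bodies, mostly in neither windows nor flanks, were covered over 22.7%, 8.23%, 10.2% and 10.0%. The windows lay below this interval in both pre-adipocyte replicates and above it in both mature replicates. The excess of this cluster therefore held in all 4 samples against its outer flanks, but not against this interval. Kcnq1ot1 had 3.08%, 1.48%, 8.12% and 14.6% in windows and 1.24%, 1.25%, 2.2% and 2.37% in flanks, a small excess in pre-adipocytes. Regions with a fold enrichment of at least 2 left the mean excess at 12.1 points for Grb10, 0.209 for Igf2r-Airn and 0.235 for Dlk1-Dio3, and turned it to -0.516 for Kcnq1ot1. An FDR up to 1e-05 lowered it to 4.66 points for Igf2r-Airn, and regions shared by both replicates lowered it to 4.59 for Dlk1-Dio3.

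The 5 clusters below their flanks in all samples were Nnat, Mcts2, Mest, Peg13 and Impact. The flanks of Mcts2, a retrogene within the H13 locus, were covered over 23.7%, 8.86%, 26.9% and 26.5%, and its window not at all. Nnat, which encodes a small membrane protein of the endoplasmic reticulum, had 6.78% of its window covered in replicate 1 of pre-adipocytes and 0% in the other samples, against 23.5%, 9.92%, 21.3% and 21.0% of its flanks. Peg13, a non-coding RNA within Trappc9, had 0% in every sample against 15.8%, 7.05%, 11.0% and 10.6%. Impact, which encodes a regulator of translation, had 6.30% and 6.66% in replicate 1 of pre-adipocytes and of mature adipocytes and 0% in the others, against flanks of 10.4%, 4.30%, 14.8% and 14.5%. The windows of Nnat, Mcts2 and Peg13 were 22.4, 20.9 and 24.7 kb long, so the absence of a region in them rests on few bases. With flanks of 500 kb the mean difference shrank from -11.1 to -0.535 points for Peg13 and from -17.2 to -8.39 for Nnat. The Mest cluster, whose windows were covered over 15.9%, 13%, 20.1% and 18.1%, had flanks at 29.6%, 15.4%, 25.6% and 25.9%. Peg10-Sgce was mixed only through replicate 2 of pre-adipocytes, where its windows had 20.4% against 26.2% in the flanks, and in the other samples the windows had 51.5%, 55.1% and 52.8% against 43.3%, 43.2% and 42.0%.

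**Figure D4:**
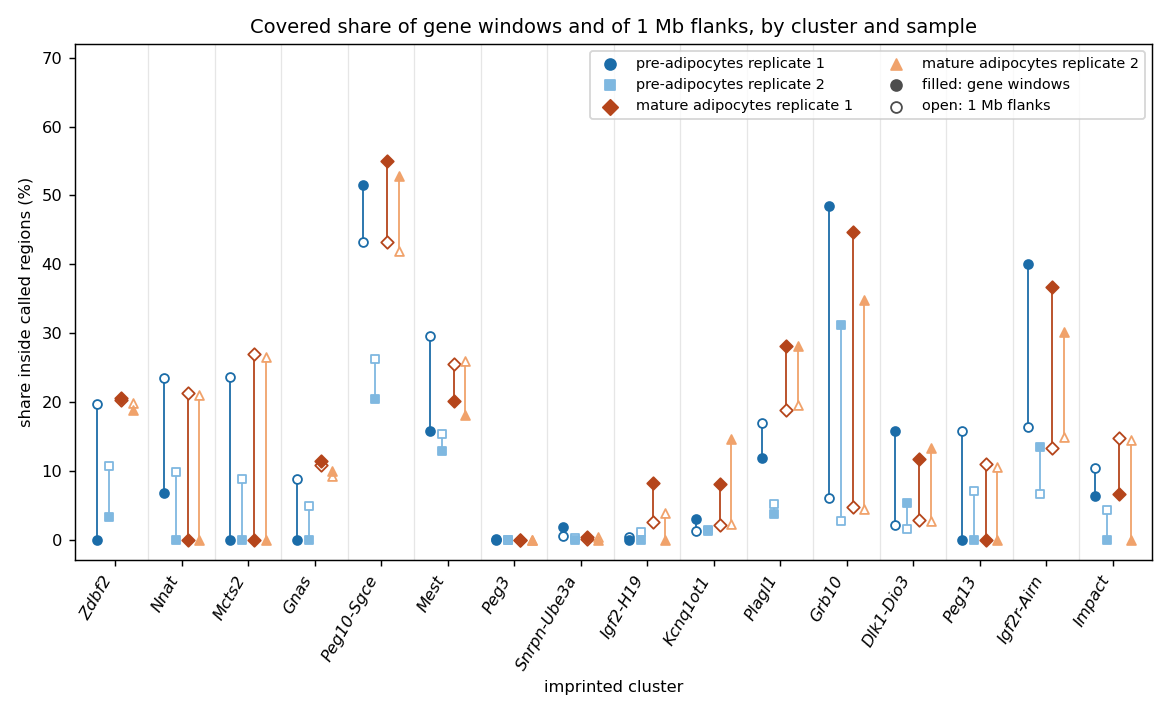
Share of bases inside called regions, in percent on the y axis, for the windows of each imprinted cluster (filled markers) and its 1 Mb flanks (open markers) in each of the 4 samples, joined by a line. Grb10, Igf2r-Airn, Dlk1-Dio3 and Kcnq1ot1 lie above their flanks in every sample, and Nnat, Mcts2, Mest, Peg13 and Impact below.

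Between conditions, the pooled windows were covered over 14.8% ± 7.83 in pre-adipocytes, against 21.1% ± 1.33 in mature adipocytes (SD, n = 2 each). The difference of 6.32 points was smaller than the SD of pre-adipocytes (exact permutation test, two-sided p = 0.667), and it fell to 0.786 points without replicate 2 of pre-adipocytes and rose to 11.9 without replicate 1. Regions were more numerous in mature adipocytes, 43.8 ± 0.276 per Mb of window against 28.2 ± 0.827 in pre-adipocytes (SD, n = 2 each). The difference in number per Mb was larger than the spread between replicates, with p = 0.33 in the exact permutation test, the smallest p that 2 samples against 2 allow. The mature number was 1.55 times the pre-adipocyte one, against 1.67 times in the flanks and 1.61 times over all regions, so the rise was not larger in the imprinted windows. The median length of the regions was 6400 and 2700 bp in the pre-adipocyte replicates and 4000 and 3400 bp in the mature replicates, which lay between them. The excess of windows over flanks was 4.29 ± 2.64 points in pre-adipocytes and 7.06 ± 1.27 points in mature adipocytes (SD, n = 2 each), also with p = 0.33 in the exact permutation test.

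Pooled over the clusters, enrichment within the regions was lower in the windows than in the flanks. The ratio of ChIP to control reads, divided by library size relative to control, was 1.70 ± 0.176 in windows and 1.81 ± 0.139 in flanks (SD, n = 4). The difference of -0.112 was negative in 4 of 4 samples (exact sign-flip permutation test, p = 0.13, the smallest possible). The clusters differed, and weighting them equally was not tried for this ratio. In Grb10 and Kcnq1ot1 the ratio was lower in the windows in every sample. In Peg10-Sgce it was higher in the windows in all samples but replicate 1 of pre-adipocytes. The regions of the windows also held more control reads per kb, 19.2 against 17.7, in 4 of 4 samples. All of these are counts of the same control library, so the samples are not independent here. The clusters differed, with fewer in the windows than in the flanks in every sample for Peg10-Sgce. Grb10, Igf2r-Airn, Dlk1-Dio3, Mest and Kcnq1ot1 had more in every sample. The part of the control signal in the excess of covered DNA was not tested. By condition, pre-adipocytes had a ratio of 1.71 ± 0.304 in windows and mature adipocytes one of 1.69 ± 0.0130 (SD, n = 2 each), a difference smaller than the spread (exact permutation test, p = 1).

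Samples overlapped within the imprinted windows about as much as over all their regions. Of the covered bases of the windows, 74.2% of those of replicate 2 of pre-adipocytes were also covered in replicate 1, and 33.8% of those of replicate 1 in replicate 2. In mature adipocytes these shares were 62.3% for replicate 1 and 68.1% for replicate 2. The same shares over all regions of the genome were 70.6%, 35%, 64.7% and 66.8%. Introns held 73.2% to 75.1% of the covered bases in the windows and make up 67.5% of the windows, while coding exons held 1.03% to 1.95% and make up 2.89%.

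ChIP reads were compared between conditions by the quasi-likelihood test of edgeR over the 12857 merged regions called in all 4 samples, of which 29 overlapped imprinted windows. A merged region joins overlapping regions of the samples, so it can reach a window through some samples only, as at Nnat and Zdbf2. None of the 29 passed an adjusted p of 0.05 (edgeR with Benjamini-Hochberg adjustment, smallest adjusted p = 0.238), nor did any with DESeq2. At an unadjusted p under 0.05 there were 2 in edgeR, 1 in each direction (background 9.15%), and 1 in DESeq2 (background 1.69%). Over all regions, 11 (0.0856%) passed in edgeR with more reads per called base in mature adipocytes, and 2 (0.0156%) with more in pre-adipocytes. The log2 fold changes of the 29 regions, mature over pre-adipocytes, ran from -0.27 to 0.22 with a median of 0.01, and the median over all regions was 0.00. Density within each sample's own called intervals is compared here, which narrows the range of changes beforehand.

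**Figure D5:**
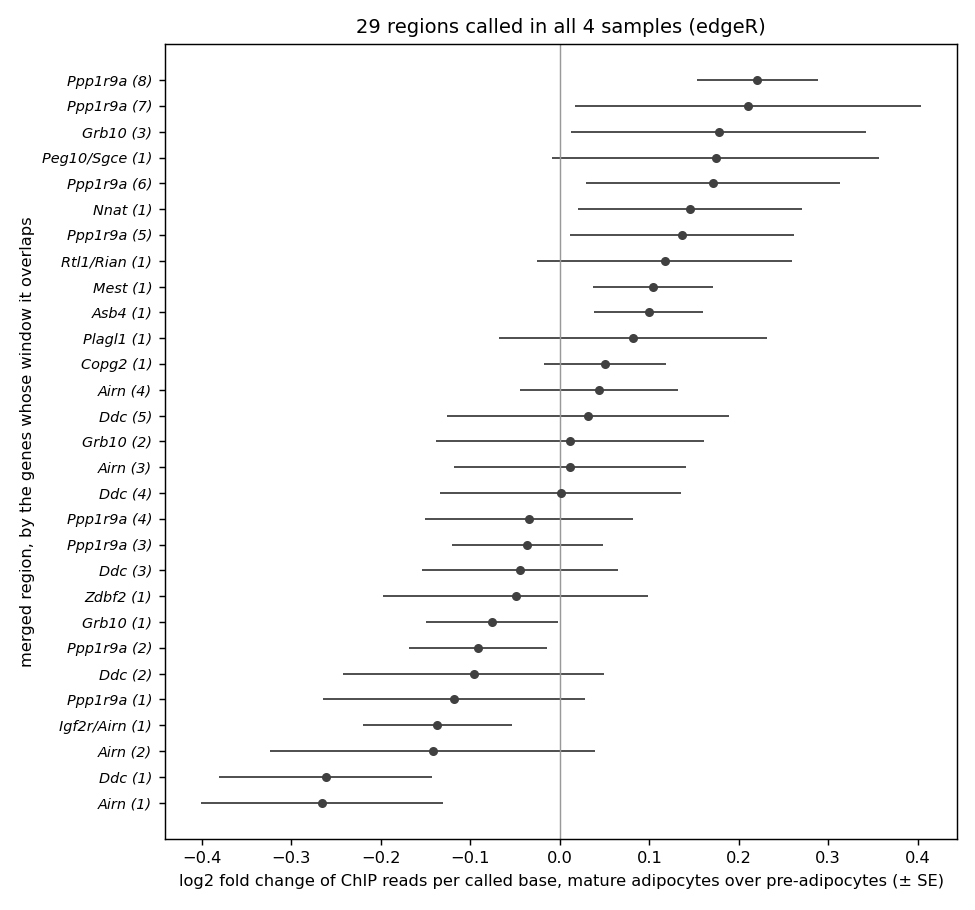
Log2 fold change of ChIP reads per called base, mature adipocytes over pre-adipocytes, with its standard error as bars, for the 29 merged regions that overlap imprinted windows and were called in all 4 samples, named on the y axis by gene with a running number. The estimates lie between -0.27 and 0.22, and none passed an adjusted p of 0.05 in edgeR.

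The smallest p belonged to a region in Ppp1r9a at chromosome 6 from 4925001 to 4985600, with 1279 and 242 ChIP reads in the pre-adipocyte replicates and 2543 and 2605 in the mature replicates. Its log2 fold change was 0.22 (SE 0.0675, adjusted p = 0.238, edgeR). The called length within it was 36400 and 11400 bp in pre-adipocytes and 54000 and 56600 bp in mature adipocytes. Reads per kb of called length, scaled by library size relative to control, were 29.2 and 38.7 in pre-adipocytes. They were 38.4 and 38.2 in mature adipocytes, so the conditions overlapped on this scale, with replicate 1 of pre-adipocytes low. The fit is scaled otherwise, by TMM. On the printed scale replicate 2 of pre-adipocytes lay above replicate 1 in nearly all tested imprinted regions, so overlap on it does not bear on the fold change. Without replicate 2 of pre-adipocytes the log2 fold change was 0.25 with an adjusted p of 0.00178 (edgeR, with 1 sample in the condition taken to vary like the others). The other regions with the smallest p among those higher in mature adipocytes were at Asb4 (chromosome 6 from 5371201 to 5442400, log2 fold change 0.10, adjusted p = 0.650, edgeR) and Mest (chromosome 6 from 30694401 to 30734400, log2 fold change 0.10, adjusted p = 0.672, edgeR). Without the length offset both turned, to -0.16 at Asb4 and -0.013 at Mest.

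Among regions with a negative log2 fold change, the smallest p were at Ddc and Airn. The Ddc region, at chromosome 11 from 11854801 to 11867800, had 368 and 183 ChIP reads in pre-adipocytes and 210 and 352 in mature adipocytes, and a log2 fold change of -0.26 (SE 0.119, adjusted p = 0.483, edgeR). Its scaled density was 31.9 and 40.7 reads per kb in pre-adipocytes and 32.9 and 27.5 in mature adipocytes. The conditions overlapped on this scale, which is not that of the fit. In Airn, the region at chromosome 17 from 12818001 to 12832200 had a log2 fold change of -0.27 (adjusted p = 0.564, edgeR), and the one from 12770801 to 12803000, which also reaches the Igf2r window, -0.14 (adjusted p = 0.648, edgeR). The scaled density of the first was 30.8 and 37.6 reads per kb in pre-adipocytes and 26.2 and 30.2 in mature adipocytes, without overlap.

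Other genes of imprinted domains, from a second fixed list, were examined in the same way, and 50 of 51 were found in the annotation. Of the 50, 33 had a region in 1 or more samples, and regions were found in both pre-adipocyte replicates for 22, in both mature replicates for 26 and in all 4 samples for 20. These shares, 66%, 44%, 52% and 40%, compare with the backgrounds of 45.2%, 21.0%, 29.8% and 18.5% given above, and were not adjusted for window length. Regions in both mature replicates and in neither pre-adipocyte replicate occurred at 2 (4%), Nap1l5, a paternally expressed nucleosome assembly gene, and Cdkn1c, the cell cycle inhibitor p57, which is near the background of 4.25%. The reverse occurred at 1 (2%, background 0.728%), Calcr, the calcitonin receptor.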

How the data were processed

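The authors demultiplexed single reads with bcl2fastq 2.16, aligned them to mm10 with Bowtie 1.1.2, keeping unique alignments (2 mismatches allowed), discarded duplicates by Picard and called regions sample by sample with SICER 1.1 against the library without antibody. For each region the deposited tables hold raw counts of ChIP and control reads, the authors' p-value and FDR (largest 0.001), and a deposited fold enrichment, the ratio of ChIP to control reads scaled by library size. The scaling was a single factor per sample and gave each library's size relative to the control. Total depths, reads and the control's own regions were not used here. Only uniquely aligned reads were kept, so repeats are under-represented.

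Region limits, in steps of 200 bp, are printed 1-based. Covered shares are bases inside regions, per sample. Flanks are 1 Mb on each side of a cluster, outward from its outermost windows, without the windows of other listed genes among the 37. Genes of the second list were not taken out of the flanks. DNA between the windows of a cluster is in neither windows nor flanks. Where each sample gave 1 value, conditions were compared by exact permutation tests (2 against 2, smallest p 0.333) or exact sign-flip tests (4 samples, smallest p 0.125). Counts of merged regions called in all 4 samples were tested with edgeR 4.0.16 (quasi-likelihood, TMM on length-corrected counts, offset of log called length) and Benjamini-Hochberg adjustment, with DESeq2 1.42.0 as an alternative; the script was tested on simulated data. Promoters and miRNAs came from RefSeq (GRCm38.p6). Python 3.11.15, numpy 2.4.6, pandas 2.3.3, matplotlib 3.10.9, R 4.3.3 and limma 3.58.1 were used.

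The genes, clusters and lists were chosen with earlier results of these data known. Genes were named with values where both replicates of a condition had a region, together with Dlk1 and the 3 genes with the largest covered share. Regions tested by edgeR were named where they had the 3 smallest p in each direction, and clusters where all 4 samples lay on 1 side of the flanks. Alternatives covered the FDR, fold enrichment, window, overlap, flanks, regions shared by replicates, normalization, tool, length offset, count filter, replicate block and each replicate left out.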

Additional observations from a re-analysis of the deposited data

How the results depend on the processing

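Depth limits the comparison of conditions, since replicate 2 of pre-adipocytes held the fewest reads. Leaving out each replicate in turn gave 13 to 20 genes with regions in pre-adipocytes, 19 to 23 in mature adipocytes, 3 to 6 in mature adipocytes only and 0 to 4 in pre-adipocytes only, and 1 to 224 edgeR regions over the genome, with 0 to 1 of them in imprinted windows (Ppp1r9a, without replicate 2 of pre-adipocytes). It moved the covered share of windows, mature minus pre-adipocytes, between 0.786 and 11.9 points, and the excess of windows over flanks between 4.91 and 6.76 points. A fit with 1 sample in a condition takes that sample to vary like the others.

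An FDR up to 1e-05 gave 5 genes with regions in mature adipocytes only, 1 cluster above its flanks in all samples and 2 edgeR regions. A fold enrichment of at least 2 gave 3 genes with regions in both pre-adipocyte replicates, 7 in both mature replicates and 1 cluster above its flanks, and turned the excess of windows over flanks to -0.458 points and that of Kcnq1ot1 to -0.516. The gene body alone gave 1 gene with regions in mature adipocytes only. The 13 edgeR regions became 2 with DESeq2, 0 with the library sizes relative to control (69 at an unadjusted p under 0.05), and 3 without the length offset, which also turned the log2 fold changes of Asb4 to -0.16 and of Mest to -0.013. The cause was not tested for any of these. With the replicate number as a block, 27 regions passed, 0 of them in imprinted windows. Deviations from the condition means of samples with the same number had a correlation of 0.00775, which gives no sign that the numbers pair the samples. The value for different numbers, -0.00775, is its fixed negative with 2 replicates per condition and adds nothing. The window of 5 kb, an overlap of 1000 bp, flanks of 500 kb, flanks that kept other listed genes, and TMM replaced by DESeq2's size factors moved no count by over 1.5 times, and turned no direction where all samples lay on 1 side. Flanks of 500 kb turned the mean of Gnas, a mixed cluster, from -3.08 to 3.19 points. Windows and flanks weighted by cluster, chosen after seeing the data, gave 0.0804 points for windows over flanks and 5.61 for mature over pre-adipocytes.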
